A study of Mus musculus with 8 samples.

Results

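Transcripts of the class I antigen presentation pathway were followed in RAW264.7 cells through 10 genes listed by name: H2-K1, H2-D1, B2m, Tap1, Tap2, Tapbp, Psmb8, Psmb9, Psmb10 and Nlrc5. All 10 were among the 10639 genes of the deposited table, and all 10 passed the filter on low values that left 10289 genes for testing. RAW264.7 is a mouse macrophage-like line transformed with Abelson leukaemia virus. The 8 RNA sequencing libraries fall into 4 groups of 2, all labelled wild type. They are untreated cells, cells given lipopolysaccharide (LPS, a ligand of TLR4 from the outer membrane of bacteria) at 50 ng/mL for 12 h, cells with antibodies against the scavenger receptor CD36 at a dilution of 1 in 100 for 12 h, and cells with both for 12 h, here called the combination, whose labels give no doses. There is no group with a control antibody.

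Class I molecules show peptides from inside the cell to CD8+ T cells. The proteasome cuts proteins into peptides, the TAP transporter moves these into the endoplasmic reticulum, and a loading complex held together by tapasin places them on a heavy chain paired with beta 2-microglobulin. In cells exposed to interferons, the catalytic subunits of the proteasome can be replaced by those of the immunoproteasome, and the transactivator NLRC5 acts on the promoters of many genes of the pathway.

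In the GRCm38 annotation (GENCODE M21), 7 of the 10 genes lie on chromosome 17 and all are protein-coding. Psmb9 (34181987 to 34187764, minus strand), Tap1 (34187553 to 34197225, plus strand), Psmb8 (34197721 to 34201454, plus strand) and Tap2 (34203527 to 34216321, plus strand) stand next to each other within 34335 bp. Psmb9 and Tap1 overlap by 212 bp on opposite strands, and because strand use in counting is not given, reads there cannot be told apart. H2-K1 (33996017 to 34000347, minus strand), Tapbp (33915899 to 33929292, plus strand) and H2-D1 (35262730 to 35267499, plus strand) are on the same chromosome. B2m is on chromosome 2 (122147686 to 122153083, plus strand), and Psmb10 (105935735 to 105938444, minus strand) and Nlrc5 (94434356 to 94527272, plus strand) are on chromosome 8. RAW264.7 derives from BALB/c mice, whose H2 haplotype is not that of the C57BL/6J reference, so H2-K1, H2-D1 and the other heavy chain genes were counted against different alleles. The part of this in their levels was not tested, and the same mismatch applies to all 8 libraries.

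Promoter windows of RefSeq (GRCm38.p6) matched 8 of the 10 genes by symbol, all but Tap2 and Nlrc5. Stretches of the H2-K1 and B2m windows are printed 5′ to 3′ on the strand of the gene, because the heavy chain and its partner carry matches to the same kinds of element. They run from 150 to 11 bases before the RefSeq start, at chr17:34000358-34000497 (minus strand) and chr2:122147537-122147676 (plus strand). Capitals mark matches on either strand to an NF-kB element, to a pair of GAAA 2 bases apart or to GAANNGAAA (forms of the element bound by interferon regulatory factors), to TTCNNNGAA (bound by STAT proteins), to TGACGC (as in the X2 box) or to CCAAT.
H2-K1: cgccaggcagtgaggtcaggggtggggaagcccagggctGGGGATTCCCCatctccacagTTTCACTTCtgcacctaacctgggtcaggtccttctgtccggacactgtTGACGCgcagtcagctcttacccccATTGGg
B2m: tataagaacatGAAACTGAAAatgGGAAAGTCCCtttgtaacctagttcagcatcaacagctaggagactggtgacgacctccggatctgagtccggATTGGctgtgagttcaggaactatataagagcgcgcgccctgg

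In H2-K1 the capitals mark, in order, overlapping matches to the NF-kB element, GAANNGAAA on the opposite strand, TGACGC, and CCAAT on the opposite strand. In B2m they mark the GAAA pair, the NF-kB element and CCAAT, the last pair on the opposite strand. The 30 bases that hold the first pair of elements of H2-K1 (chr17:34000429-34000458, minus strand) were compared with those of H2-D1 (chr17:35262923-35262952, plus strand), since both heavy chains are described here.
H2-K1: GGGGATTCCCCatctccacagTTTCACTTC
H2-D1: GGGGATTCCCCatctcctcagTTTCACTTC

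These were identical at 29 of 30 positions. Over the 250 bases before the start, an NF-kB element was matched in 3 of the 8 genes (H2-K1, H2-D1 and B2m) and in 7.25% of all 32851 windows. GAANNGAAA was matched in 2 of the 8 (6.31% of all windows), the GAAA pair in 1, B2m (2.98%), TTCNNNGAA in 1, Psmb8 (7.02%), TGACGC in 2 (6.12%) and CCAAT in 6 (33.8%). The windows of Psmb9 and Tap1 overlap on opposite strands, and their CCAAT matches are the same bases. The H2-K1 and H2-D1 stretches are near-identical, so these counts are not of independent promoters. A match is a run of letters and was not tested for binding.

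By the reads recovered from the values, libraries held 47900000 to 71700000 reads, and the members with their constitutive proteasome counterparts were counted with 807 to 115606 reads each. The pair of anti-CD36 libraries stood apart: its Pearson's r over the tested genes, as a description, was 0.966, and the other pairs reached 0.992 to 0.997. Anti-CD36 replicate 1 had 15.7% of its FPKM sum in mitochondrially encoded genes, and the other 7 libraries had 3.28% to 6.62%. The share of ribosomal protein genes was 7.26% in that library and 12.3% in its partner. Of 10 macrophage markers 9 were in the table, with sums of 3634 to 5406 FPKM over the libraries. Single markers moved in both directions between the untreated and LPS means. Adgre1 went from 13.0 to 83.4 and Cd14 from 497 to 1514 FPKM, while Csf1r went from 308 to 103 and Cd68 from 526 to 330. Of 35 markers of 7 other cell types 6 were in the table, and 5 of these had group means of at most 4.27 FPKM, the exception being Ighm at 76.5 to 88.9. Whether replicates were separate cultures is not in the labels, so every p-value here is set against a spread that may be technical.

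LPS raised most of the class I genes. Of the 10, 7 rose and none fell against untreated cells, by 0.35 to 1.69 on the log2(FPKM + 1) scale (limma, Benjamini-Hochberg over all genes, adjusted p under 0.05). Among all tested genes, 17% rose and 37.5% fell. The median of the 10 differences was 0.64, and that of all tested genes -0.19. In bulk libraries, more or fewer expressing cells and more or less RNA per cell cannot be told apart. In each of the 10 genes both LPS libraries lay above both untreated libraries, which held for 30.6% of all tested genes. Ribosomal protein genes also held more of the FPKM sum with LPS (11.9% and 11.1%, and 13.1% and 11.6% in the combination, against 9.07% and 7.26% untreated) and mitochondrially encoded genes less (4.10% and 3.94%, against 4.70% and 6.62% untreated). The part of these shares in the members' differences was tested only by leaving out the mitochondrial genes, after which 8 of the 10 were called. The count of 7 depended on the libraries fitted: it was 3 without either untreated library, 2 without LPS replicate 1 and 4 without LPS replicate 2. Tap1 and Psmb10 were called in each of these fits. Scaling by median-ratio size factors moved the median of all genes to 0.01 and the share of higher genes among those called from 31.2% to 49.6%, and 9 of the 10 genes, all but Psmb9, were then called higher.

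In untreated cells, the heavy chains, their partner and tapasin were the most abundant of the 10. H2-K1, a classical heavy chain that presents peptides to CD8+ T cells, was at 34.5 and 30.1 FPKM in the untreated libraries, 42.0 and 40.5 with LPS, 32.3 and 37.9 with anti-CD36, and 52.0 and 53.4 in the combination. The combination libraries were the highest, and the anti-CD36 and untreated values overlapped. H2-K1 rose with LPS by 0.35 ± 0.12 (SE, limma adjusted p = 0.0464), a call that was lost in 7 of 19 alternatives. H2-D1, the other classical heavy chain, was more abundant per length, at 158 and 135 FPKM untreated, 238 and 228 with LPS, 114 and 183 with anti-CD36, and 296 and 265.1 in the combination. Both groups with LPS lay above both without it, while the anti-CD36 pair spanned the untreated values. H2-D1 rose with LPS by 0.67 ± 0.22 (limma adjusted p = 0.0356), and this call was lost in 8 of 19 alternatives.

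B2m encodes beta 2-microglobulin, the invariant light chain that every classical class I molecule needs to reach the surface. It stood at 1223 and 1177 FPKM untreated, 2189 and 1919 with LPS, 1658 and 1539 with anti-CD36, and 2104 and 2397 in the combination. It was the most abundant of the 10 in every group, and its anti-CD36 values lay between those of untreated and LPS-treated cells. B2m rose with LPS by 0.77 ± 0.19 (limma adjusted p = 0.0114). The call was lost in 5 of 19 alternatives. The difference moved to 0.24 after quantile normalization (limma adjusted p = 0.305) and to 0.42 with a trend on gene length removed from each library (adjusted p = 0.168). The call was also lost without either untreated library and without LPS replicate 1.

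**Figure D1:**
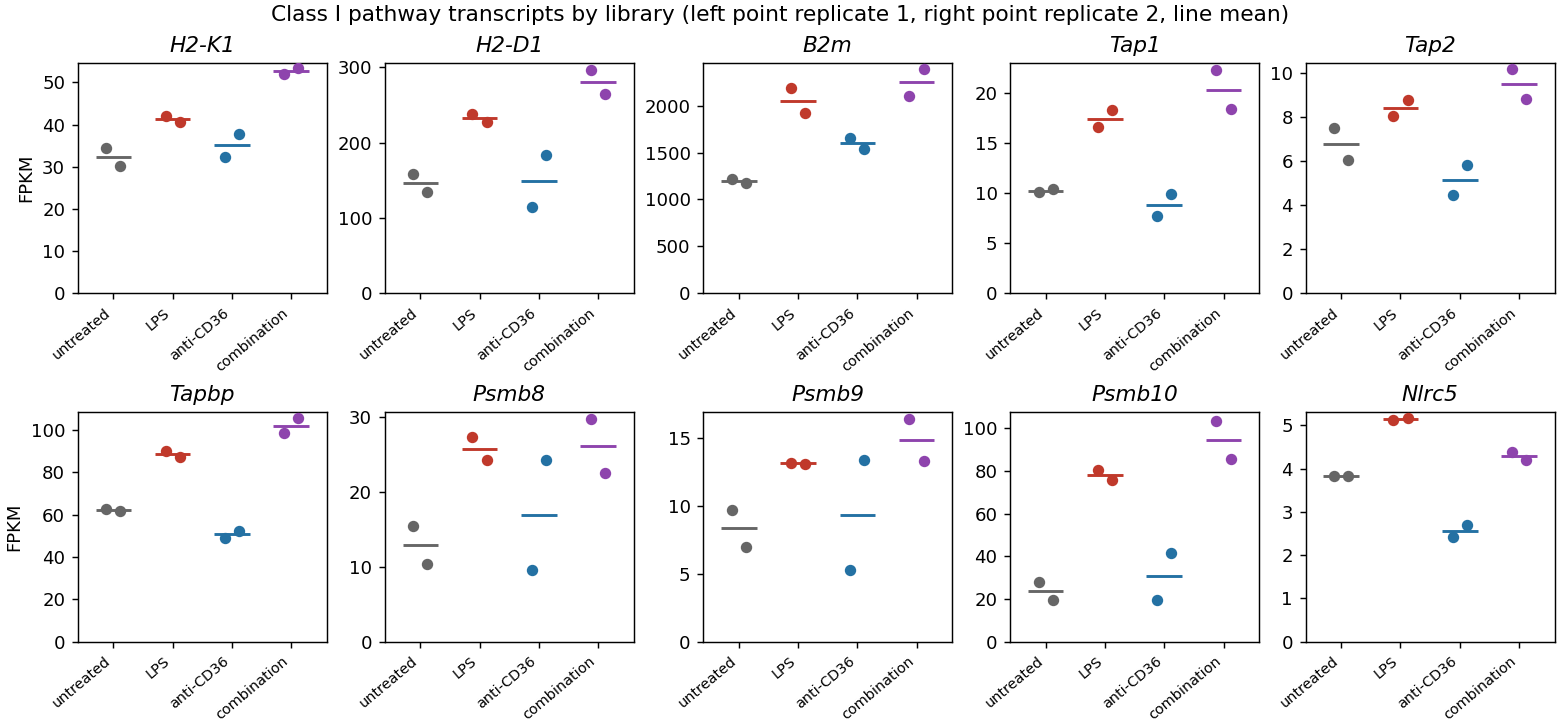
FPKM of the 10 genes (vertical axes, each from 0) in the 8 libraries by group, with replicate 1 as the left point, replicate 2 as the right point and a line at the group mean. In each panel both LPS points lie above both untreated points, and the anti-CD36 pair is spread most widely for Psmb8, Psmb9 and Psmb10.

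TAP1 and TAP2 form the transporter that carries peptides into the endoplasmic reticulum. Tap1 was at 10.1 and 10.4 FPKM untreated, 16.6 and 18.3 with LPS, 7.67 and 9.87 with anti-CD36, and 22.3 and 18.4 in the combination. Every library with LPS lay above every library without it. Tap1 rose with LPS by 0.71 ± 0.15 (limma adjusted p = 0.0049), 1.70-fold in mean FPKM, and was called in all 19 alternatives. Tap2 had 7.52 and 6.04 FPKM untreated, 8.06 and 8.77 with LPS, 4.46 and 5.85 with anti-CD36, and 10.2 and 8.82 in the combination. The untreated and LPS values of Tap2 did not overlap but lay close together. Its difference of 0.28 ± 0.15 was not called (limma adjusted p = 0.16, 95% interval -0.08 to 0.64). Tap2 was called higher in 3 of 19 alternatives: quantile normalization, size factors by median ratio, and a length trend removed.

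Tapbp encodes tapasin, which bridges the transporter and the heavy chain in the loading complex. Its values were 62.5 and 61.8 FPKM untreated, 90.0 and 87.0 with LPS, 49.1 and 52.1 with anti-CD36, and 98.3 and 105.8 in the combination. Replicates lay close together and the 4 groups did not overlap, in the order anti-CD36, untreated, LPS, combination. Tapbp rose with LPS by 0.50 ± 0.11 (limma adjusted p = 0.0063), a call lost only without LPS replicate 1 among 19 alternatives.

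Of the 3 immunoproteasome subunits, Psmb10 rose most among all 10 genes. Psmb10, which takes the place of the constitutive subunit PSMB7, went from 27.8 and 19.7 FPKM untreated to 80.6 and 75.6 with LPS. It was at 19.7 and 41.5 with anti-CD36 and at 104 and 85.5 in the combination. Libraries with LPS lay well above those without, and the pair of anti-CD36 libraries differed from each other by more than the untreated pair. The rise with LPS was 1.69 ± 0.32 (limma adjusted p = 0.0033), 3.29-fold in mean FPKM, and was called in all 19 alternatives.

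Psmb8, which takes the place of PSMB5, was at 15.5 and 10.4 FPKM untreated, 27.4 and 24.3 with LPS, 9.60 and 24.3 with anti-CD36, and 29.7 and 22.6 in the combination. Its mean was 1.99-fold higher with LPS, but the difference of 0.97 ± 0.38 was not called (limma adjusted p = 0.064). Psmb9, which takes the place of PSMB6, was at 9.71 and 6.996 untreated, 13.2 and 13.1 with LPS, 5.26 and 13.4 with anti-CD36, and 16.4 and 13.4 in the combination, and its LPS difference of 0.61 ± 0.35 was not called either (limma adjusted p = 0.17). In both genes the anti-CD36 pair was spread over most of the range of the 8 libraries, and that spread enters the shared error. In a fit on only the untreated and LPS libraries both were called, at an adjusted p of 0.0015 for Psmb8 and 0.0058 for Psmb9 (limma). That fit called 6972 genes in all, against 5614 in the fit to all libraries. Over the 19 alternatives Psmb8 was called in 7 and Psmb9 in 3.

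**Figure D2:**
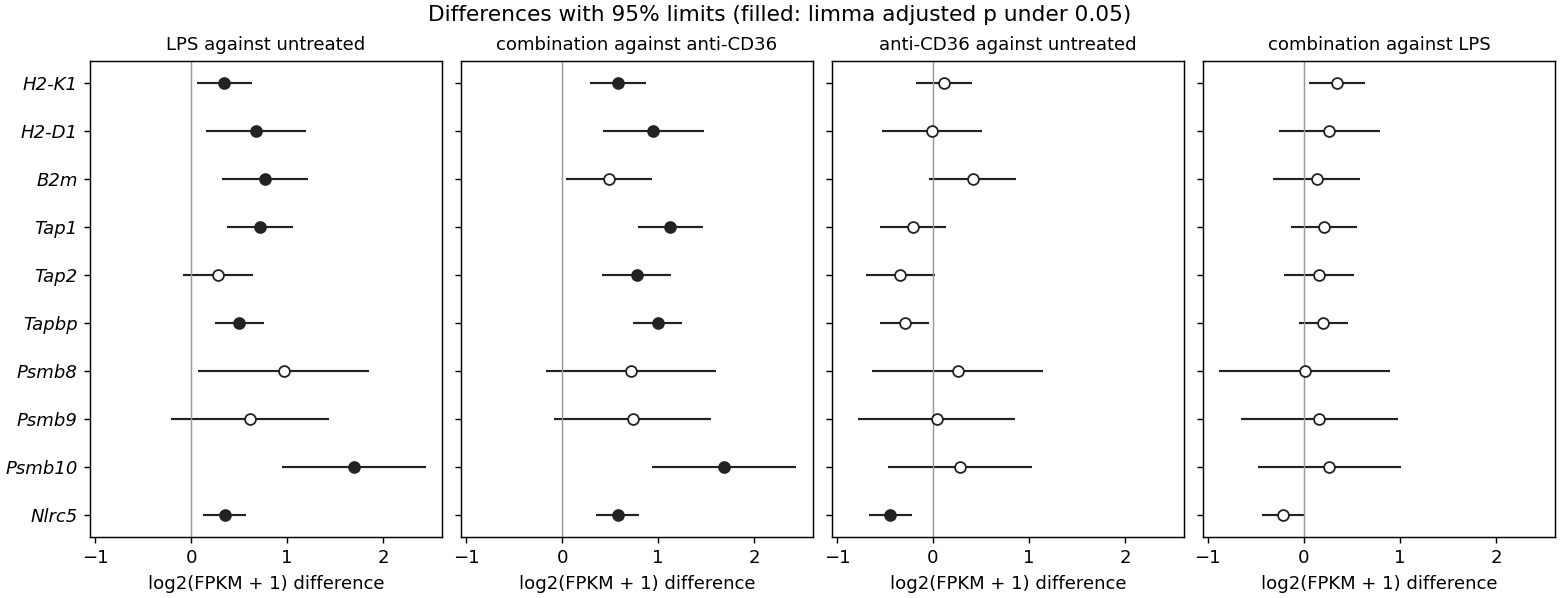
Differences of the 10 genes on the log2(FPKM + 1) scale (horizontal axis) with 95% limits in 4 comparisons, with filled points for a limma adjusted p under 0.05. With LPS, 7 of 10 points are filled to the right of 0 both without and with the antibodies, against 1 filled point for anti-CD36 alone, which is Nlrc5 to the left of 0, and none for the combination against LPS.

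Of the 3 constitutive catalytic subunits, 1 rose with LPS and none fell. Psmb7 rose with LPS from 34.9 to 63.7 mean FPKM (0.86 ± 0.20, limma adjusted p = 0.0089), a call lost without untreated replicate 2 and without LPS replicate 1. Psmb6 (0.84 ± 0.32, adjusted p = 0.06) and Psmb5 (0.75 ± 0.51, adjusted p = 0.25) were not called. As for Psmb8 and Psmb9, both were called in the fit on only the untreated and LPS libraries (limma adjusted p = 0.0026 and 0.0053). All genes called there numbered 6972, against 5614 in the fit to all libraries. The ratio of each immunoproteasome subunit to the constitutive one it replaces was taken within each library, where it does not depend on the scaling of the library. Its size also depends on the lengths used for the FPKM values, so it was compared between libraries and not between pairs of genes. A length-dependent difference between libraries can remain in it, since paired genes differ in exon length (Psmb8 3381 bp, Psmb5 899 bp). Over the tested genes, replicate 2 minus replicate 1 correlated with exon length (Spearman's rho 0.48 untreated, 0.25 LPS, -0.33 anti-CD36, 0.29 combination). The ratios printed here were not corrected for this.

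The 3 ratios differed in direction between libraries with and without LPS. Psmb10/Psmb7 was 0.721 and 0.634 in the untreated libraries, 1.22 and 1.24 with LPS, 0.638 and 0.879 with anti-CD36, and 1.51 and 1.22 in the combination. All 4 libraries with LPS lay above all 4 without it, 1.82-fold on average (exact permutation test within antibody strata, 2-sided, p = 0.0556, which is the smallest that 36 assignments allow, and 0.0833 adjusted over the 3 ratios). Psmb9/Psmb6 was 0.0903 and 0.0934 untreated, 0.0786 and 0.0844 with LPS, 0.0790 and 0.0978 with anti-CD36, and 0.0787 and 0.0735 in the combination. This ratio was lower with LPS within each antibody stratum, by 0.19 on the log2 scale (-0.19, exact permutation p = 0.0556, adjusted 0.0833).

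Psmb8/Psmb5 was 0.336 and 0.334 untreated, 0.411 and 0.390 with LPS, 0.481 and 0.335 with anti-CD36, and 0.326 and 0.318 in the combination. The LPS pair lay above the untreated pair, and the combination pair below the anti-CD36 pair, so that the mean difference was -0.03 on the log2 scale (exact permutation p = 0.889). Without anti-CD36 replicate 1 it was 0.10, on the other side of 0.

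**Figure D3:**
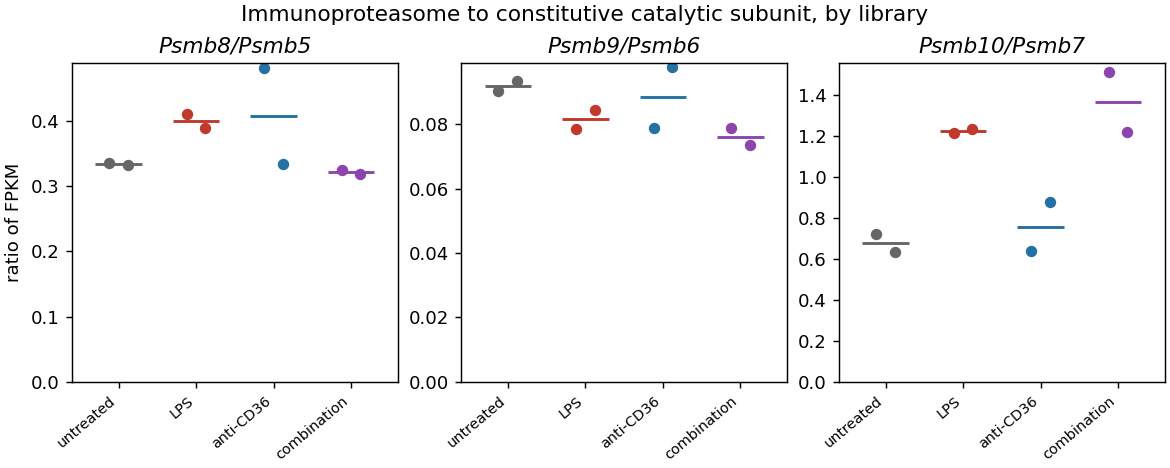
Ratio of FPKM of each immunoproteasome subunit to the constitutive subunit it replaces (vertical axes from 0), by library and group, with lines at the group means. Psmb10/Psmb7 is above 1 in all 4 libraries with LPS and below 1 in all 4 without it, and neither other ratio separates all 4 from all 4.

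Nlrc5, the transactivator of class I genes, was the least abundant member in every group. It was at 3.82 and 3.83 FPKM untreated, 5.12 and 5.18 with LPS, 2.41 and 2.69 with anti-CD36, and 4.38 and 4.21 in the combination. Its 4 groups did not overlap, in the order anti-CD36, untreated, combination, LPS. Nlrc5 rose with LPS by 0.35 ± 0.10 (limma adjusted p = 0.0165), a call lost in 4 of 18 alternatives. It was the only member whose mean was lower in the combination than with LPS alone (4.30 against 5.15 FPKM), a difference of -0.22 ± 0.10 that was not called (adjusted p = 0.27).

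With anti-CD36 alone, 1 of the 10 genes was called, and it fell. Among all tested genes 3.04% rose and 10.6% fell, so that 1 of 10 is near the background. That gene was Nlrc5, at -0.44 ± 0.10 (limma adjusted p = 0.0273), 0.668 of the untreated mean. The call was lost in 11 of 18 alternatives, among them a trend on gene length removed (-0.20, adjusted p = 0.258), a fit on only these groups (adjusted p = 0.181) and the fits without either untreated library (0.135 and 0.158). Nlrc5 has the longest exon length of the 10, at 8493 bp. Both anti-CD36 libraries lay above both untreated libraries in 1 gene (B2m) and below them in 4 (Tap1, Tap2, Tapbp and Nlrc5), as in 16.7% and 35.9% of all tested genes. The other 9 ranged from -0.34 for Tap2 to 0.41 for B2m, and their median with Nlrc5 was 0.01, against -0.08 for all tested genes.

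The immunoproteasome genes differed widely between the anti-CD36 replicates. Replicate 2 was above replicate 1 by a factor of 2.53 for Psmb8 and 2.55 for Psmb9, more than the 1.99-fold and 1.57-fold between the LPS and untreated means. For Psmb10 the factor was 2.11, less than the 3.29-fold with LPS. For Tapbp it was 1.06, so the spread was not shared by all members. Without anti-CD36 replicate 1 the count of members called was 4 (Psmb8, Psmb9 and Psmb10 higher, Nlrc5 lower). Without replicate 2 it was also 4, but these were Tapbp, Tap2, Psmb9 and Nlrc5, all lower. The mitochondrial and ribosomal protein shares also differed between these replicates, and their part in this was not tested.

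LPS also raised class I genes in the presence of the antibodies. This comparison and that of LPS with untreated cells come from 1 fit with a shared error, and without either anti-CD36 library the latter called 9 of the 10, and without either combination library 5. Against anti-CD36 alone, 7 of the 10 rose in the combination and none fell, where 15.4% of all tested genes rose and 31.7% fell. In 8 of the 10, all but Psmb8 and Psmb9, both combination libraries lay above both anti-CD36 libraries (24.9% of all tested genes). The median of the 10 was 0.76, and that of all tested genes -0.15. Tapbp rose by 1.00 ± 0.11 (limma adjusted p = 3.1e-04), Tap1 by 1.13 ± 0.15 (7.1e-04) and Psmb10 by 1.68 ± 0.32 (0.0042). Nlrc5 rose by 0.58 ± 0.10 (0.0022), H2-K1 by 0.58 ± 0.12 (0.0071) and H2-D1 by 0.95 ± 0.22 (0.0105). Tap2 rose here, by 0.78 ± 0.15 (limma adjusted p = 0.0050). B2m was not called (0.49 ± 0.19, adjusted p = 0.07), nor were Psmb8 (0.72 ± 0.38, 0.16) and Psmb9 (0.73 ± 0.35, 0.12), whose combination values overlapped those of anti-CD36.

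The difference between these LPS effects was tested as an interaction, and no member was called (limma adjusted p of 0.287 to 0.995, with 0.00972% of all tested genes called). An unadjusted p under 0.05 was found for 1 of the 10 and for 13.6% of all tested genes, so that 1 of 10 is near the background. The gene at an unadjusted p under 0.05 was Tapbp, whose LPS effect was larger with the antibodies by 0.50 ± 0.15 (adjusted p = 0.287, 95% interval 0.14 to 0.86). For Tap2 the interaction was 0.50 ± 0.22 (adjusted p = 0.38), so a Tap2 call with the antibodies and none without them is not shown to differ between these settings. For Psmb10 it was -0.01 ± 0.45, with a 95% interval of -1.07 to 1.05.

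No class I gene was called between the combination and LPS alone, a comparison that shares its LPS libraries with that against untreated cells. In the combination against LPS, 0 of 10 were called by limma, where 1.78% of all tested genes were called. An unadjusted p under 0.05 was found for 1 of the 10 (H2-K1) and for 19.5% of all tested genes. The differences ran from -0.22 for Nlrc5 to 0.35 for H2-K1, with a median of 0.18, against -0.02 for all tested genes. H2-K1 was 1.28-fold higher in mean FPKM, by 0.35 ± 0.12 (adjusted p = 0.19). It was called in 3 of 19 alternatives: in the fit on only these groups and without either anti-CD36 library. In 7 of the 10 both combination libraries lay above both LPS libraries, and in Nlrc5 both lay below (28.5% and 35.6% of all tested genes). The 95% intervals of Tapbp (-0.05 to 0.46), Tap1 (-0.14 to 0.55) and B2m (-0.32 to 0.58) include differences as large as the LPS effect on H2-K1.

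Related genes of the pathway were taken from lists. Of 24 further class I-like heavy chain genes, 12 were tested, and 5 rose and 3 fell with LPS. Among all tested genes 17% rose and 37.5% fell with LPS. Of the 84 tested genes of all lists but the members, 28.6% rose and 29.8% fell. H2-T23, the nonclassical heavy chain Qa-1, rose from 22.96 to 61.2 mean FPKM (1.38 ± 0.22, limma adjusted p = 0.0016), and H2-T22 rose from 10.1 to 24.6 (1.21 ± 0.18, 0.0011). Hfe, a class I-like protein of iron control, fell from 2.45 to 1.01 (-0.78 ± 0.15, 0.0042). Mr1, among the 3 that fell, reached an FPKM of 1 only in libraries without LPS. With size factors 6 rose and 1 fell. Many H2-Q and H2-T genes are near-identical copies, and how reads with several matches were counted is not given, so their values are uncertain. The median of the list was 0.16.

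Of 15 genes for loading chaperones, trimming and the translocon, 3 rose and 5 fell with LPS, with a median of 0.03. Both counts were near the 17% and 37.5% of all tested genes. With size factors the split turned to 5 and 3. Lnpep, an aminopeptidase of endosomes that trims peptides, rose from 8.57 to 26.3 mean FPKM (1.52 ± 0.19, limma adjusted p = 4.7e-04), and Sec61g, a small subunit of the translocon, rose by 1.76 ± 0.49 (0.018), a call lost without untreated replicate 2 and without either LPS library. Uggt1, which checks the folding of glycoproteins, fell from 18.0 to 9.03 (-0.92 ± 0.12, 5.7e-04). Calreticulin (Calr) and Pdia3, the chaperone pair that holds the heavy chain in the loading complex, were named after their values were seen. Calr fell from 492 to 290 mean FPKM (-0.76 ± 0.16, 0.0049) and Pdia3 from 342 to 246 (-0.48 ± 0.16, 0.033), the latter call being lost in 9 of 19 alternatives.

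Of the 11 other subunits of the 20S core, 6 rose and none fell with LPS, with a median of 0.64. For this list and the next ones, the shares of all tested genes were 17% higher and 37.5% lower. Psma6 rose from 150 to 552 mean FPKM (1.87 ± 0.19, limma adjusted p = 2.1e-04), Psma5 by 1.08 ± 0.32 (0.025) and Psma1 by 0.82 ± 0.26 (0.03). The calls of Psma5 and Psma1 were lost in 4 and 6 of 19 alternatives. Under the alternatives 3 to 9 of the 11 rose and none fell. Of 10 activators and assembly factors, 3 rose and 1 fell. Those that rose were the PA28 activator subunits Psme2 (51.1 to 194 mean FPKM, 1.92 ± 0.34, 0.0024) and Psme1 (63.7 to 126, 0.98 ± 0.13, 5.5e-04) and the assembly factor Pomp (1.11 ± 0.37, 0.035), and Psme3, a nuclear activator named after its value was seen, fell by 0.71. Psme2 has a near-identical copy, so its values are uncertain, and the calls of Pomp and Psme3 were lost in 7 and 6 of 19 alternatives. Cytosolic peptidases, which trim or destroy peptides, fell in 5 of 9 and rose in none, with Dpp9 at -0.77 ± 0.11 (0.0010), Npepps at -0.75 ± 0.14 (0.0031) and Thop1 at -0.68 ± 0.14 (0.0041), and 4 or 5 of the 9 fell and 0 to 3 rose under the alternatives run.

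**Figure D4:**
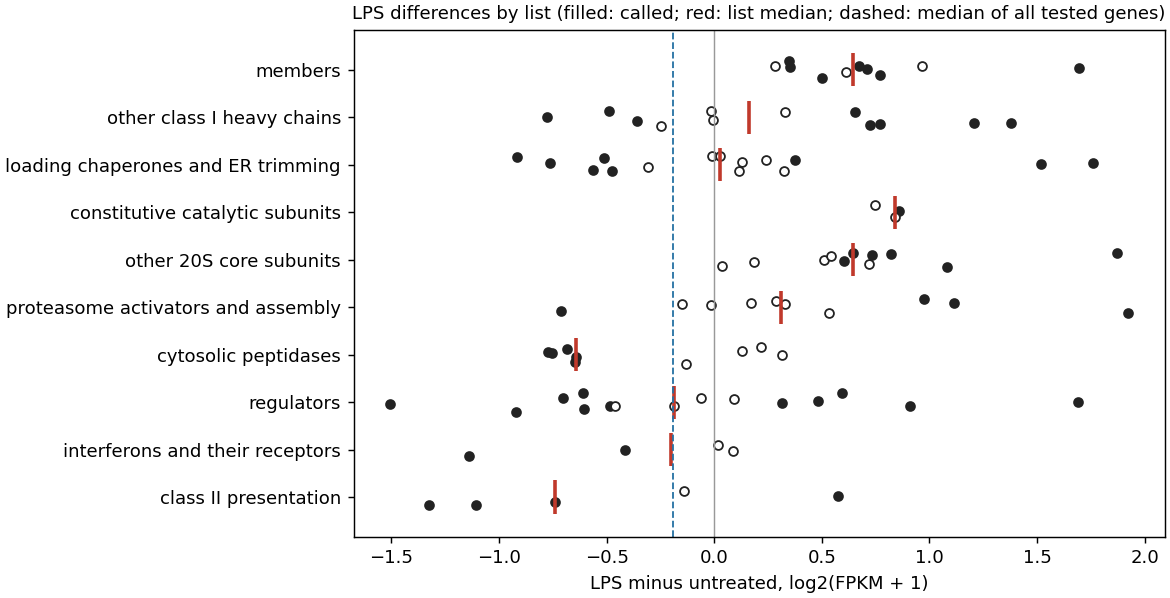
LPS minus untreated differences on the log2(FPKM + 1) scale (horizontal axis) for each tested gene of the 10 lists (vertical axis), with filled points for a limma adjusted p under 0.05, a red line at the list median and a dashed line at the median of all tested genes. The medians of the members and of the other 20S core subunits are both 0.64. Those of the cytosolic peptidases, the regulators, the interferon receptors and the class II genes lie below 0.

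Of 15 tested transcription factors linked to class I promoters, 5 rose and 6 fell with LPS. Among all tested genes 17% rose and 37.5% fell, so the 6 that fell are near that share. Irf8, an interferon regulatory factor of myeloid cells, rose from 17.5 to 58.7 mean FPKM (1.69 ± 0.12, limma adjusted p = 3.8e-05). Irf2, which binds the same elements, fell from 8.74 to 2.43 (-1.50 ± 0.28, 0.0033), and Nfyc, a subunit of the factor that binds CCAAT, fell from 17.01 to 8.51 (-0.92 ± 0.15, 0.0019). Of 7 interferons and receptors, 4 were tested, all of them receptor chains, and 2 fell: Ifngr1 from 21.2 to 9.11 mean FPKM (-1.14 ± 0.10, 1e-04) and Ifnar2 from 6.37 to 4.53 (-0.41 ± 0.12, 0.021), the second call being lost with quantile normalization, with size factors and in 5 other alternatives. Ifnar1 was not called (0.09 ± 0.12). The other genes of this list were not in the deposited table, and Ifnb1, Ifna4 and Ifng were not analysed here.

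Of 13 class II presentation genes, 5 were tested, and 3 fell and 1 rose with LPS, with a median of -0.74. The shares of all tested genes were 37.5% lower and 17% higher. Ifi30, the thiol reductase of the class II route, fell from 187 to 73.8 mean FPKM (-1.33 ± 0.21, limma adjusted p = 0.0014), H2-DMa, which exchanges peptides, from 2.00 to 0.39 (-1.11 ± 0.09, 6.9e-05), and H2-Oa from 1.57 to 0.53 (-0.74 ± 0.17, 0.0081). H2-DMa and H2-Oa passed the filter on low values only through libraries without LPS. H2-Eb1 (mean FPKM 0.52 untreated and 0.60 with LPS) and H2-Ob (0.55 and 0.64) did not pass it. The filter thus favours genes that fell, and it bears on the count of 3 and on the median. Over the alternatives 1 to 4 of the class II genes fell and 0 or 1 rose. No gene of these lists was called in the combination against LPS or in the interaction. In the combination against LPS, 19 of 80 tested were called in the fit on only these groups (6 other 20S core subunits higher among them), 9 of 84 without anti-CD36 replicate 1 and 10 of 84 without replicate 2. In the interaction, 5 and 1 of 84 were called without anti-CD36 replicates 1 and 2.

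In the combination against anti-CD36, 3 further heavy chain genes rose and 3 fell, and 1 loading gene rose and 4 fell. Of the other 20S core subunits 3 rose, and of activators or assembly factors 2, with none falling in either list. Among all tested genes 15.4% rose and 31.7% fell, and among the 84 tested genes of the lists 19% rose and 27.4% fell. Psma6 rose by 1.98 and Psme2 by 1.76 (limma adjusted p = 1.8e-04 and 0.0044). Cytosolic peptidases fell in 4 of 9 and class II genes in 4 of 5, and none of either list rose. The filter on low values bears here too, through H2-DMa and H2-Oa in the class II count and Mr1 among the heavy chains. Regulators were again divided, with 5 higher and 6 lower, among them Irf8 at 2.05 and Irf2 at -1.38. With anti-CD36 alone, 5 of the 84 tested genes of the lists were called, all named after their values were seen. Of the 84, 2.38% rose and 3.57% fell, where 3.04% and 10.6% of all tested genes did. The share that rose was near that of all tested genes. The count was 0 without either untreated library and in the fit on only these groups, 41 without anti-CD36 replicate 1, 17 without replicate 2, and 1 with any single LPS or combination library left out. The 20S core subunit Psma4 rose by 0.71 and Nfyb, a subunit of the factor that binds CCAAT, by 0.53, while the translocon subunit Sec61a1 fell by 0.45, Rfx5, a factor of the X box, by 0.61 and Stat2, which carries interferon signals, by 0.65.

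The order of levels per length in untreated cells was B2m, H2-D1, Tapbp, H2-K1, Psmb10, Psmb8, Tap1, Psmb9, Tap2 and Nlrc5, and among neighbours the replicate values overlapped only for Psmb9 and Tap2. With LPS, Psmb10 moved past H2-K1. The tested genes with the nearest pattern over the 8 libraries were found by the root mean square difference of log2(FPKM + 1) after centring each gene. Pseudogenes, predicted genes named Gm or Rik, and genes with the prefix mt- were left out of this search. For Nlrc5 they were Gmeb2 (0.044), Slc44a2 (0.052) and Errfi1 (0.068), against a range of 0.86 for Nlrc5 itself. Gmeb2 had means of 7.45 FPKM untreated, 9.97 with LPS, 5.37 with anti-CD36 and 7.98 in the combination. For Tap1, with a range of 1.42, they were Trpm4 (0.082), Carhsp1 (0.089) and Gadd45a (0.0995). Their means, untreated and with LPS, were 0.85 and 2.16 FPKM for Trpm4, 23.7 and 39.3 for Carhsp1, and 0.35 and 1.47 for Gadd45a. Trpm4 and Gadd45a are low genes whose change this scale understates, so they are near Tap1 on it but not in fold change. For H2-K1, with a range of 0.81, they were Rhox5 (0.049), Gss (0.054) and Psmc1 (0.064), the last an ATPase of the proteasome cap. No other member was among the 3 nearest of any of these genes.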

How the data were processed

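Total RNA of RAW264.7 cells was extracted with Trizol and sequenced on Illumina instruments, per the labels' protocols. The authors deposited 1 table of FPKM (read fragments scaled by exon length and library size), 1 value per gene and library. Among tools and builds, HISAT2 2.0.5, mm10 and hg38 appear in the submitters' processing notes, with no roles, and the counter, annotation and use of strand are not given in the sources used here. From the FPKM, log2(FPKM + 1) of the 10289 genes that reached an FPKM of 1 in 2 or more libraries was fitted with limma 3.58.1 in R 4.3.3, as 4 group means over 8 libraries with a trended prior (4 residual and 3.46 prior degrees of freedom). p-values were adjusted by Benjamini-Hochberg over all tested genes and called under 0.05. Differences on this scale understate the change of low genes. The script was tested on simulated data.

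Reads per library were recovered from the smallest steps of 134 short RNAs, and with GENCODE M21 exon lengths all 104 values of the members and Psmb5, Psmb6 and Psmb7 came out whole within 0.005 reads. The members and gene lists were chosen with earlier results of these data known. All members are named, with up to 3 genes per list of the largest absolute LPS difference, Psmb5, Psmb6, Psmb7, Psme1 and Psme2, any list gene called between the combination and LPS or in the interaction, and the 3 genes nearest in pattern to Nlrc5, Tap1 and H2-K1. Alternatives changed the pseudocount (0.1 or 5), the filter (none, or a mean FPKM from 5 upward), the scaling (quantiles, or size factors by median ratio) and the prior (without a trend). Others added the replicate number as a block, removed a length trend, the mitochondrial genes or 1 library at a time, or fitted only the groups compared.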

Additional observations from a re-analysis of the deposited data

How the results depend on the processing

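Precision was limited by the 2 libraries per group, and the lowest count behind a member's value was 807 reads. Members called against untreated cells with LPS numbered 7, and 2 to 9 over 19 alternatives: 3 without either untreated library, 2 without LPS replicate 1 and 4 without LPS replicate 2. With anti-CD36, 1 was called, against 0 with a mean FPKM of at least 5 (where Nlrc5 was not testable), quantile normalization, size factors, a length trend removed, mitochondrial genes removed or only the groups compared, and 0 to 4 without single libraries. Between the combination and LPS, 0 were called, against 1 (H2-K1) with only the groups compared, and 0 to 1 without single libraries. The count of 7 in the combination against anti-CD36 ranged from 5 to 9, and the count of 0 in the interaction stayed 0 in 18 alternatives. The cause of these changes was not tested.

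Signs changed for differences that were not called in the fit to all libraries. Of the values below, Psmb9 without anti-CD36 replicate 2, and Psmb8, Psmb9 and Psmb10 without replicate 1, were called for anti-CD36 against untreated cells. For anti-CD36 against untreated cells, H2-D1 was 0.091 with size factors and 0.075 without mitochondrial genes. With single libraries left out it ranged from -0.35 to 0.33, Psmb8 from -0.37 to 0.88, Psmb9 from -0.56 to 0.64 and Psmb10 from -0.24 to 0.80, each from the fit without anti-CD36 replicate 2 to that without replicate 1. For the combination against LPS, quantile normalization gave -0.032 for B2m and -0.020 for Psmb8, and removing the length trend gave -0.013 and -0.025. Psmb8 ranged from -0.18 without combination replicate 1 to 0.20 without replicate 2. In the interaction, leaving out anti-CD36 replicate 1 and replicate 2 gave -0.061 and 0.62 for H2-D1, -0.88 and 0.38 for Psmb8, -0.48 and 0.72 for Psmb9, and -0.53 and 0.51 for Psmb10, which were the extremes over the libraries, and Psmb10 was 0.0047 with a pseudocount of 5. The Psmb8/Psmb5 ratio ranged from -0.094 without LPS replicate 1 to 0.10 without anti-CD36 replicate 1. With the antibody ignored in the exact permutation, the Psmb10/Psmb7 difference of 0.86 had p = 0.0286, and 0.0556 with it kept.

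Groups share the replicate numbers 1 and 2, which the labels do not tie to a batch, and the correlation of replicate differences between pairs of groups ran from -0.65 to 0.53. With the replicate number as a block, 5 members were called with LPS, 1 with anti-CD36, 0 between the combination and LPS, 7 between the combination and anti-CD36, and 0 in the interaction. The calls of all genes ranged over the alternatives from 3583 to 7080 with LPS (5614 as fitted), 0 to 3726 with anti-CD36 (1405), 1 to 2384 between the combination and LPS (183), 3098 to 6374 between the combination and anti-CD36 (4844) and 0 to 616 in the interaction (1). With size factors the share of higher genes among those called moved from 22.3% to 42.3% with anti-CD36, and from 32.6% to 50.6% between the combination and anti-CD36.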
